A study of Mus musculus with 8 samples.

Results

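The subject is the uterus of ovariectomized female CD-1 mice given Korean red ginseng (KRG) alone, set against the uteri of the 3 other groups of the same study. The mice, an outbred stock, were 6 weeks old at ovariectomy, which removes the main source of estrogen, and rested for 1 week. They then received, by mouth for 7 days, neither agent (control), 200 mg/kg/day of bisphenol A (BPA, a building block of plastics with weak estrogenic activity), 1.2 g/kg/day of KRG, or both (the combined group). The comparison takes 1 library, the KRG uterus, against 3, out of 4 uterus libraries and 8 libraries in all, the other 4 being livers of the same 4 treatments. The labels name the libraries by tissue and treatment. They leave unsaid how many animals went into each library, how the uterus was dissected, and whether the tissues were paired within a mouse.

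Each library was a 3' end library (QuantSeq, in which reads come from close to the poly(A) tail) made from 500 ng of total RNA. The uterus libraries held between 12990417 (KRG) and 14797515 (combined) counts, and Rn45s, the ribosomal RNA precursor, took 8.62% to 11.3% of them. Levels are given as CPM, counts scaled to 1 common library size within a tissue, in the order control, BPA, KRG and combined wherever 4 values follow a gene. Differences are the log2(CPM + 1) of KRG minus the mean of the 3 others, a scale that understates differences of low genes. Folds are ratios of CPM to the nearest of the 3 others, with exact Clopper-Pearson intervals of counting error only. The sources used here mention no molecular identifiers, so reads need not be separate molecules and the intervals may be too narrow. With 1 library per group there was no replicate error, the 3 others are not replicates of each other, and none of the differences below was tested against the spread between animals. In whole tissue, more cells of a type and more RNA per cell of that type cannot be told apart.

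Fat cells store triglyceride in a droplet coated by perilipins and CIDE proteins. They take up fatty acids that lipoprotein lipase releases from circulating lipoproteins, and secrete the hormones adiponectin and leptin. The uterus hangs in a broad ligament and lies against the parametrial fat pad, so fat is a neighbouring tissue. Neutrophils, short-lived white cells, carry granules of antimicrobial proteins, and enter the uterus in step with the estrous cycle. Hepatocytes secrete albumin, apolipoproteins and acute phase proteins, among them serum amyloid A, into plasma.

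The KRG uterus held 285 genes, of 9198 tested, that were higher by at least 2-fold than the mean of the 3 others and above their range (3.1% of genes tested), and 229 that were lower and below the range (2.49%). By the stricter reading, 159 genes (1.73%) were at least 2-fold above the highest of the 3 and 46 (0.5%) at least 2-fold below the lowest. Genes above the range by any amount numbered 2704 (29.4%) and genes below it 2444 (26.6%). The median difference over all genes tested was 0.01. With total count scaling in place of the trimmed mean of M values, 230 genes were higher and 296 lower (43.7% of the genes called were higher, against 55.4%), and the median of all genes stood at -0.11. Without the control uterus, 362 genes were higher and 377 lower, and 260 and 267 by the stricter reading. Of the 285 higher genes, 98 were liver-rich, that is, at least 5 times as high in the mean of the 4 livers as in the KRG uterus, a property held by 277 of the 9198 genes tested, and 187 were not. The ratio has the KRG uterus as its base, so a high KRG level works against the label and a low one towards it. Lpin1, at a mean of 273 CPM in the livers and 44.5 CPM in the 3 other uteri, was not liver-rich. Fam25c, lower in the KRG uterus at 6.09 CPM, was liver-rich, at a mean of 56.8 CPM in the livers. Of the 9198 genes, 153 passed the filter of a mean of 10 CPM only through the KRG library, and 59 of the 285 higher genes were among them, so these could only be higher.

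The control uterus was most often the library nearest to KRG. The next highest uterus was the control in 177 of the 285 higher genes (62.1%), the combined library in 72 and the BPA library in 36. It was the control in 93 of the 98 liver-rich genes and in 84 of the 187 others (44.9%), where the combined library was next in 69. Among the 229 lower genes, the next lowest uterus was the control in 208. At the 2-fold limit, Gcsh, at 71.4, 64.9, 136 and 66.0 CPM (just over 2-fold), lay inside and Moxd1, at 18.3, 12.0, 24.5 and 7.34 CPM (just under), outside. On the lower side Vat1, at 40.9, 67.8, 31.8 and 97.4 CPM (just over 2-fold), lay inside and Flrt3, at 12.4, 21.9, 9.46 and 28.8 CPM (just under), outside.

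By median difference, the lists furthest out were hepatocyte, neutrophil, acute phase and adipocyte genes on the higher side, and bladder lining and skeletal muscle genes on the lower side, among lists with at least 5 measured members. For every list below, the shares over all genes tested were 3.1% higher and 2.49% lower. Promoter stretches of Adipoq, S100a8 and Saa1, 1 gene each of the adipocyte, neutrophil and acute phase lists, are shown so that their letters can be read beside the values. The sequences are RefSeq promoter windows on GRCm38.p6, 5' to 3' on the gene's strand, ending at the base before the annotated gene start, at chr16:23146286-23146535 (plus strand) for Adipoq, chr3:90668821-90668977 (plus strand) for S100a8 and chr7:46742981-46743230 (minus strand) for Saa1. Capitals mark matches to a C/EBP motif, TTGCNNAA, and to the CCAAT box, CCAAT, on either strand.
Adipoq: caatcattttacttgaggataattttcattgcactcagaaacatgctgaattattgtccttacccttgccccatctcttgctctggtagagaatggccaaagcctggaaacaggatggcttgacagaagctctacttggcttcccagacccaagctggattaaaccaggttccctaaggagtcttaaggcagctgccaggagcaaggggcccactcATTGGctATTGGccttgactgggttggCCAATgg
S100a8: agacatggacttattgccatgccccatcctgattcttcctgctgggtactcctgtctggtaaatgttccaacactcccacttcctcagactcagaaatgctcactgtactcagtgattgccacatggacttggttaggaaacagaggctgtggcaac
Saa1: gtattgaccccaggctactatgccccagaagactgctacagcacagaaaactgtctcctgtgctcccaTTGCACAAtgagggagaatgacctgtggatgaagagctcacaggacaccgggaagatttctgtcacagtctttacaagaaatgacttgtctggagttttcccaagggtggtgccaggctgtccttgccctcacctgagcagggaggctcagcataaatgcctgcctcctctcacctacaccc
The Adipoq window held 3 CCAAT boxes and 0 C/EBP matches, the S100a8 window 0 of either, and the Saa1 window 1 C/EBP match. The S100a8 window was shorter, at 157 bases against 250 for Adipoq and for Saa1. Neither motif overlaps the other in these windows. The C/EBP motif was in 41 of 204 higher genes with a window (20.1%), 22 of 171 lower genes (12.9%), 9.62% of the 7020 tested genes with a window and 10.8% of 27025 genes in the table. By list, it was in 3 of 10 adipocyte, 2 of 4 neutrophil and 4 of 7 acute phase genes called higher. The CCAAT box was in 45.6% of the higher genes, 37.4% of the lower and 40.2% of the tested genes. Matches are a description of these letters, not sites of binding.

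Fat cell genes were higher in the KRG uterus, with 15 of 21 measured members of the adipocyte list higher and 0 lower, beside 3.1% and 2.49% of all genes tested, and a median difference of 1.48 beside 0.01. Their summed level was 7296, 6963, 19466 and 7182 CPM, so that the 3 other uteri lay close together and the KRG uterus stood apart. None of the 15 was liver-rich, a label that their high KRG levels work against. The number higher was 15 also when the control, BPA or combined uterus was left out. Adipoq (adiponectin, an insulin-sensitizing hormone of fat cells, chr16:23146536-23158028, ENSMUSG00000022878.5) stood at 417, 283, 1559 and 415 CPM, a difference of 2.09 and 3.74-fold (95% interval 3.63 to 3.85) above the control uterus, the nearest. Cidec, which fuses lipid droplets (chr6:113424634-113435760), stood at 218, 188, 1236 and 255 CPM, a difference of 2.49 and 4.84-fold (95% interval 4.67 to 5.02) above the combined uterus. Lpl, lipoprotein lipase (chr8:68880491-68907448, ENSMUSG00000015568.16), stood at 826, 716, 3652 and 1021 CPM, a difference of 2.11 and 3.58-fold (95% interval 3.51 to 3.64) above the combined uterus. In each of the 3 genes the 3 other uteri lay within a narrow band and the KRG uterus lay far outside it. The part that fat pad tissue had in these values was not tested.

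Secreted products of fat cells were also highest in the KRG uterus. Retn, the hormone resistin, stood at 93.7, 56.7, 371 and 80.3 CPM (difference 2.29). Lep, the satiety hormone leptin, stood at 12.3, 9.49, 45.6 and 15.8 CPM (difference 1.81). Cfd, the serine protease adipsin, had a smaller difference of 0.86, at 2745, 2249, 3805 and 1484 CPM, and did not reach 2-fold although the KRG uterus was highest. Receptors of fat cells were also higher. The activin-type receptor gene Acvr1c stood at 18.9, 14.6, 64.0 and 13.2 CPM (difference 1.99), and Adrb3, the adrenergic receptor that starts lipolysis in fat, at 39.6, 46.8, 115 and 34.9 CPM (difference 1.5). Adig, adipogenin, a small membrane protein of fat cells, stood at 4.24, 12.0, 55.0 and 16.5 CPM, with a difference of 2.40. Members of the list that were not called were Slc2a4, the insulin-responsive glucose transporter (0.77), Pnpla2, the first lipase of triglyceride breakdown (0.69), Nnat (0.51), Sncg (-0.02) and Cidea, which was lowest in the KRG uterus, at 52.7, 68.5, 24.1 and 29.8 CPM (difference -0.95). Aqp7, the glycerol channel, and Pparg, the master regulator of fat cells, lay under the filter, with Pparg at 3.29, 8.87, 3.78 and 14.2 CPM.

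**Figure D1:**
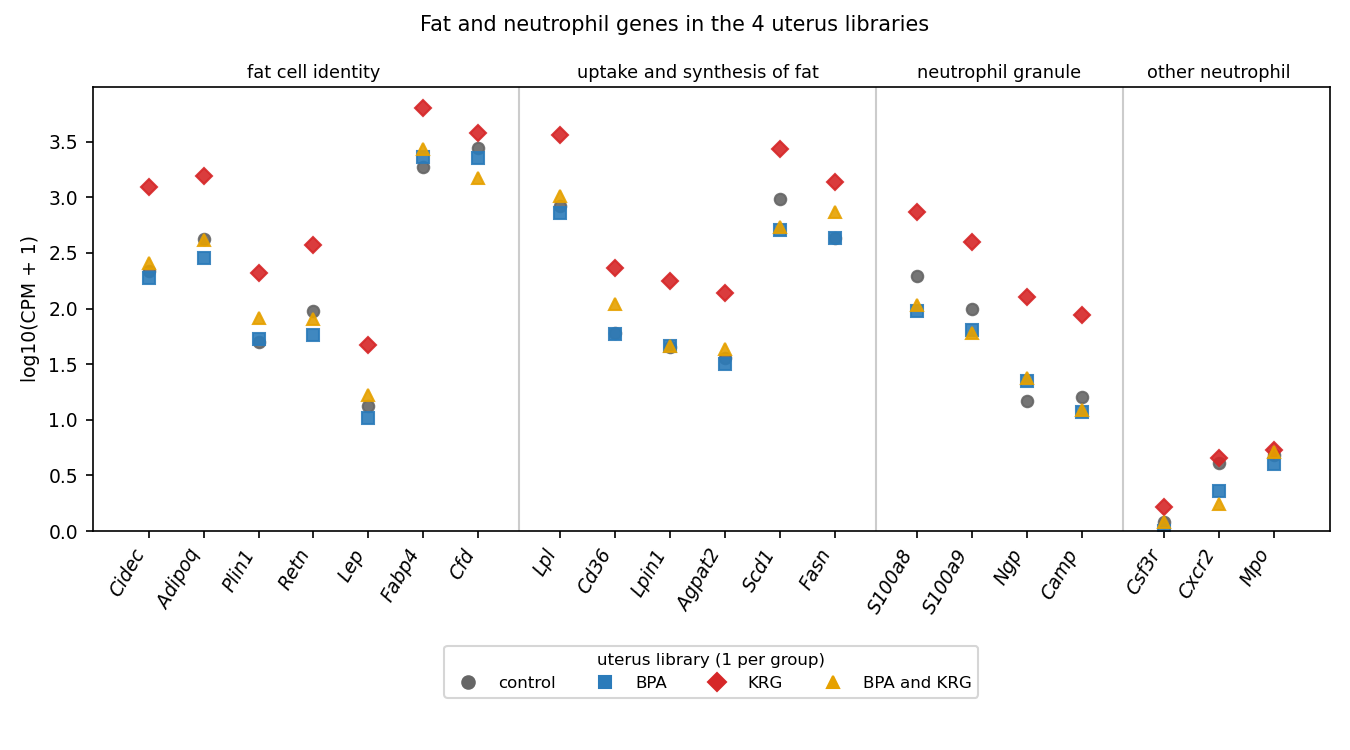
Levels of fat and neutrophil genes in the 4 uterus libraries, as log10(CPM + 1); each point is 1 library, with no error bar since each group has 1. The KRG library is highest for the fat cell genes shown and for S100a8, S100a9, Ngp and Camp, drawn under neutrophil granule. Adipoq lies at 1559 CPM and S100a8 at 737 CPM, while Csf3r and Mpo lie low in the 4 libraries. The neutrophil list members Ltf, Lcn2 and Mmp9, which were not called, are not drawn.

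Genes of lipid uptake and triglyceride synthesis were higher in 11 of 16 measured members and lower in 0, with a median difference of 1.47. The fat lists share members, so their counts are not separate. Lpl is in the adipocyte list too, Lpin1 among the regulators of fat cell formation and Mgll among droplet coat and lipolysis genes. Cidec is shared by the adipocyte and droplet coat lists. Cd36, a fatty acid carrier of the plasma membrane, stood at 59.6, 57.8, 232 and 109 CPM (difference 1.67). Fabp4, which binds fatty acids inside fat cells, stood at 1879, 2319.8, 6337 and 2690.0 CPM (difference 1.48). Along the route from glycerol phosphate to triglyceride, Gpd1, which makes glycerol phosphate, stood at 131, 119, 470.1 and 213 CPM (difference 1.65), and Agpat2, an acyltransferase of that route, at 35.2, 30.6, 137 and 42.4 CPM (difference 1.91). Lpin1, the phosphatidate phosphatase of the next step, stood at 43.7, 44.9, 175 and 45.0 CPM, so that the 3 other uteri were nearly equal and the KRG uterus was 3.89-fold (95% interval 3.56 to 4.25) above the highest of them. Dgat2, which adds the last acyl chain, stood at 178, 163, 389 and 219.9 CPM with a difference of 1.06, and Dgat1, with the same role, at 58.4, 50.0, 105 and 61.1 CPM with a difference of 0.89, just under 2-fold. Gpihbp1, the capillary anchor of lipoprotein lipase, stood at 7.16, 6.10, 20.5 and 7.21 CPM and passed the filter only through the KRG library. Pck1 was the liver-rich member of the 11. Vldlr, a lipoprotein receptor, was not called (difference 0.42).

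Genes of the droplet coat and of lipolysis were higher in 7 of 14 measured members and lower in 0, median 0.99. Plin1, the perilipin that coats the droplet of fat cells, stood at 48.6, 52.3, 209 and 82.0 CPM (difference 1.80), Lipe, hormone-sensitive lipase, at 83.8, 76.0, 224 and 83.9 CPM (difference 1.45), and Mgll, the lipase of monoglycerides, at 295, 239.8, 983 and 278 CPM (difference 1.86). Pnpla3, a lipid droplet protein, had the largest difference of the list, 2.79, at 4.90, 28.1, 151 and 61.1 CPM, but its 3 other uteri also spread widely and the KRG uterus was 2.46-fold (95% interval 2.27 to 2.67) above the combined one. Droplet proteins found in many cell types were not called, with Plin2 at 0.08 and Plin3 at -0.17.

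Fatty acid synthesis genes were higher in 7 of 16 measured members and lower in 0, median 0.96. Of the 7, 2 (Acss2 and Mlxipl) passed the filter only through the KRG library, so these could only be higher. Scd1, the stearoyl-CoA desaturase, stood at 965, 503, 2732 and 536 CPM (difference 2.10) and Fasn, fatty acid synthase, at 432, 425, 1362 and 737 CPM (difference 1.41), where the combined uterus lay between KRG and the other two. Thrsp, a lipogenic protein of the nucleus, stood at 463, 353, 1585 and 589 CPM (difference 1.79), Acss2, which makes acetyl-CoA from acetate, at 6.65, 8.94, 30.6 and 7.89 CPM (difference 1.85), and Fads3, a desaturase family member, at 27.0, 22.4, 96.8 and 23.9 CPM (difference 1.95). Srebf1, the transcription factor of the pathway, was not called and had its highest level in the combined uterus, at 21.4, 34.2, 21.3 and 50.9 CPM (difference -0.63). Mlxipl, the carbohydrate-responsive factor, was called at 8.84, 6.86, 20.5 and 7.07 CPM and is liver-rich.

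Regulators of fat cell formation and glucose genes held some higher genes, while cholesterol synthesis, fatty acid oxidation and brown fat genes held 1 higher and 1 lower gene between them. Cholesterol synthesis had 1 higher and 1 lower gene of 17, median -0.20. The higher gene was Insig1, which holds sterol-sensing factors in the endoplasmic reticulum, at 13.7, 11.1, 43.3 and 14.3 CPM (difference 1.66), and the lower was Srebf2, the transcription factor of cholesterol synthesis, at 32.3, 38.0, 20.8 and 67.1 CPM (difference -1.03). Mitochondrial fatty acid oxidation genes had 0 called of 16 (median 0.20). Brown fat genes had 0 of 5 called and a median of -0.39, with Dio2, a deiodinase, at 85.2, 43.3, 29.9 and 49.7 CPM and Ppargc1a, a coactivator of mitochondrial genes, at 23.8, 18.2, 16 and 18.6 CPM. Regulators of fat cell formation were higher in 3 of 12 members, beside 3.1% of all genes tested (median 0.61), namely Lpin1, Nr1h3, an oxysterol receptor, at 34.9, 29.3, 65.7 and 31.4 CPM (difference 1.03), and Dlk1, a marker of fat precursors, at 13.2, 50.5, 73.8 and 55.5 CPM (difference 1.11). Dlk1 had a difference of 0.47 without the control uterus, and Nr1h3 one of 0.97 without the BPA uterus. Cebpa, the C/EBP factor of mature fat cells, stood at 115, 126, 243 and 199 CPM and was not called (difference 0.76). Of insulin and glucose genes, 2 of 14 were higher, beside the same 3.1% (median 0.60), among them Pygl, liver-type glycogen phosphorylase, at 98.8, 89.4, 254 and 87.7 CPM.

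Part of the neutrophil list was higher in the KRG uterus, with 5 of 8 measured members higher and 0 lower, median 2.34, while 16 other members lay under the filter. The measured members that were not called were Ltf, Lcn2 and Mmp9. The summed level of the list was 1290, 501, 2222 and 498 CPM. S100a8, a subunit of the calcium-binding protein calprotectin (chr3:90668978-90670035, ENSMUSG00000056054.9), stood at 194, 93.9, 737 and 105 CPM, a difference of 2.56 and 3.81-fold (95% interval 3.65 to 3.98) above the control uterus. S100a9, its partner subunit and its neighbour on chromosome 3, stood at 97.1, 62.6, 394 and 59.4 CPM, a difference of 2.45. Ngp, a granule protein of immature neutrophils, stood at 13.7, 21.2, 127 and 22.8 CPM, and Camp, the precursor of the antimicrobial peptide cathelicidin, at 14.9, 10.8, 86.7 and 11.4 CPM. Those 2 granule genes were 5.56-fold and 5.81-fold above the highest of the 3 others. The fifth member, Hp (haptoglobin), which fat and liver also make, stood at 102, 103, 551 and 148 CPM and is liver-rich, with a mean of 4634 CPM in the livers.

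Other neutrophil genes, granule genes among them, had smaller differences or low levels. Ltf, lactoferrin, which uterine epithelium also makes under estrogen, was highest in the control uterus, at 793, 116, 226 and 82.6 CPM. Lcn2, lipocalin of the granules, had a difference of 0.18 and Mmp9, a gelatinase, of 0.13. Receptors that mark mature neutrophils were near 0 in the 4 libraries, with Csf3r at 0.219, 0, 0.658 and 0.204 CPM and Cxcr2 at 3.07, 1.32, 3.54 and 0.748 CPM. Among members under the filter, Mmp8, the granule collagenase, stood at 1.61, 3.53, 12.4 and 2.86 CPM, Chil3, a chitinase-like protein, at 0.731, 1.52, 7.24 and 0.680 CPM and Retnlg at 2.85, 2.42, 7.90 and 2.86 CPM, in each case highest in the KRG uterus. With a filter of 1 CPM the list median was 0.83 and without a filter 0.19, so the value of 2.34 depends on which members are measured. Chemokines and adhesion molecules that recruit neutrophils had 2 measured members and 0 called.

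Cell type markers of other immune cells were not called, and 2 interferon-stimulated genes were lower. Macrophage genes had 0 of 16 called (median -0.22), with Csf1r, the receptor for their growth factor, at 28.9, 37.1, 30.1 and 45.0 CPM. T and NK cell genes had 0 members over the filter, and B cell, mast cell and eosinophil lists had 1 measured member each, uncalled. Antigen-presenting MHC class II genes had 0 of 5 called (median -0.02). Interferon-stimulated genes had 2 of 10 lower, beside 2.49% of all genes tested (median -0.35), Rsad2 at 23.5, 29.8, 8.88 and 26.5 CPM and Ifit3 at 32.6, 34.2, 9.79 and 11.9 CPM. Ifit3 came under 2-fold without the control uterus (-0.98) or the BPA uterus (-0.95).

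Most hepatocyte genes had levels in the KRG and control uteri and little in the 2 uteri given BPA. The exceptions were Ttr, the thyroid hormone carrier transthyretin, at 73.5, 28.5, 177 and 48.0 CPM, and Cyp2e1, a cytochrome P450, at 56.5, 37.1, 139.8 and 12.9 CPM. The summed level of the 13 list genes was 956, 82.0, 2169 and 70.2 CPM in the uteri, and lay between 62632 and 65900 CPM in the livers, which were scaled separately. Of 12 measured members, 12 were higher in the KRG uterus (median difference 4.30), and 3 of these passed the filter only through it. Alb, the plasma protein albumin, stood at 234, 4.57, 434 and 2.11 CPM with a difference of 4.77, yet only 1.86-fold (95% interval 1.78 to 1.94) above the control uterus. Apoa2, an apolipoprotein of high-density lipoprotein, stood at 72.8, 0.693, 188 and 0.476 CPM, and Serpina1a, an antitrypsin gene with near-identical copies beside it, at 185, 4.50, 504 and 4.01 CPM. The large differences from the mean of the 3 therefore rest on the 2 uteri given BPA, and the differences from the control uterus were 1.80-fold to 3-fold over the 13 genes, median 2.47-fold.

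Set beside the liver of the same treatment, the KRG uterus held a median of 3.14% of the liver level over the 13 genes (1.63% for Ahsg to 12.1% for Cyp2e1). The control uterus held 1.34%, the BPA uterus 0.0406% and the combined uterus 0.0142%. The 98 liver-rich genes called higher summed to 9959 CPM in the KRG uterus, against 4477, 1238 and 1399 CPM in control, BPA and combined. For 93 of these 98 genes the next highest uterus was the control. Among genes past a 2-fold gap, the top 15 by difference include Saa1, Saa2, Apoa2, Serpina1a, Serpina1b, Serpina1c and the fibrinogen chains Fgb and Fgg. They also include the liver enzymes Gnmt (19.7, 0.346, 81.2 and 0.408 CPM) and Mat1a (68.8, 0.970, 163 and 1.5 CPM) and the plasma proteins Serpina3k, Kng1, Fgl1 and Plg. Of these, Saa1, Saa2, Gnmt and Plg passed the filter only through the KRG library. Without the liver-rich genes the KRG uterus had 187 higher and 203 lower genes, and 106 and 42 by the stricter reading. The label is set from the KRG level, so this split is partly fixed by the same values. The part of liver RNA in the results was not tested. Of the 15 adipocyte genes called, 9 averaged 5 CPM or less in the livers, with Adipoq at a mean of 0.439 CPM there and Plin1 at 0.0824 CPM.

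**Figure D2:**
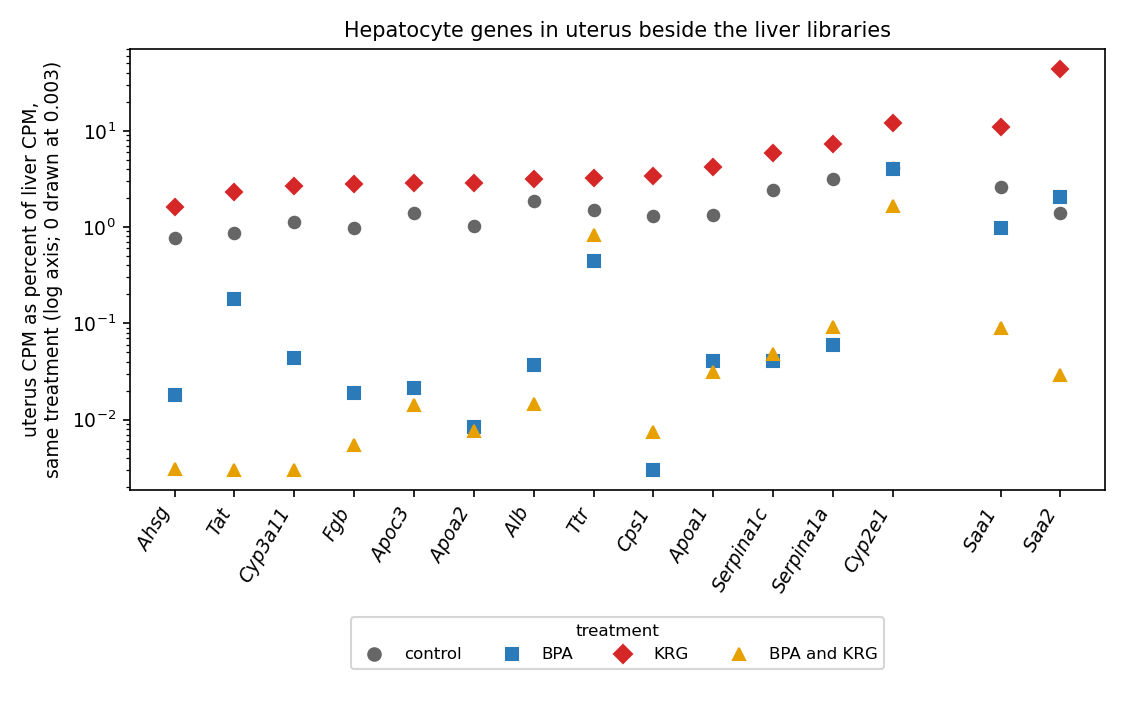
Uterus level as a percent of the liver level of the same treatment, on a log axis, for the 13 hepatocyte genes and, at right, Saa1 and Saa2; uterus and liver were scaled separately and values of 0 are drawn at 0.003. KRG (diamonds) and control (circles) lie near each other for the 13 genes, with medians of 3.14% and 1.34%, far above the 2 libraries given BPA for most of them.

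Serum amyloid genes stood further out. Saa1 (chr7:46740497-46742980, ENSMUSG00000074115.5), an acute phase protein carried on high-density lipoprotein, stood at 1.17, 0.693, 92.1 and 0.952 CPM in the uteri, a difference of 5.59 and 78.8-fold (95% interval 48.3 to 138) above the control. Saa2, at chr7:46751790-46754313, stood at 0.292, 0.901, 88.1 and 0.136 CPM, a difference of 5.98. The pair are near-identical copies, so the split of reads between them is uncertain. In the livers Saa1 stood at 44.7, 70.5, 838 and 1076 CPM and Saa2 at 21.1, 43.5, 202 and 463 CPM, where the combined library was highest, while in the uteri the combined library stood near 0. Orm1, the acute phase glycoprotein orosomucoid, stood at 35.2, 10.7, 175 and 7.00 CPM, 4.95-fold (95% interval 4.49 to 5.48) above the control uterus. Of 14 measured acute phase genes 9 were higher and 0 lower (median 2.13). Of these 9, 8 were liver-rich and 3 passed the filter only through the KRG library. Fgb is counted in the hepatocyte list too, and Hp in the neutrophil list. Saa3, the serum amyloid gene expressed outside liver, was not called, at 2.78, 22.0, 15.4 and 10.1 CPM, nor were the metallothioneins Mt1 (0.67) and Mt2 (0.92).

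Most genes of the bladder lining were lowest in the KRG uterus. Of 14 measured members 12 were lower and 0 higher, median -4.52, the count being 12 also without the control, the BPA or the combined uterus, and the summed level was 626, 7835, 216 and 14132 CPM. Upk3a, a uroplakin of the urothelial membrane (chr15:85017141-85022547), stood at 66.3, 1216, 7.57 and 2705 CPM, a difference of -6.14 and 8.76-fold (95% interval 7.06 to 11) below the control uterus. Psca, a surface antigen of urothelium and stomach, stood at 142, 2219, 13.0 and 3476 CPM (difference -6.21), and Ivl, involucrin of the squamous envelope, at 10.3, 306, 0.987 and 624 CPM (difference -6.03). The KRG uterus was lowest and the combined uterus highest for these 3 genes, with the control between KRG and BPA. Krt14 and Krt5, keratins of basal squamous cells, were not called, at 0.67 and -0.64. The part that bladder tissue had in these differences was not tested.

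The same side held a run of gasdermin C genes on chromosome 15, between 63775968 and 63878558, which encode pore-forming proteins of epithelia. Gsdmc2 stood at 39.8, 203, 0.740 and 278 CPM, 53.7-fold (95% interval 28.1 to 118) below the control, with a difference of -6.25. Gsdmc and Gsdmc3 stood at 14.7, 67.8, 0.247 and 100.2 CPM and at 18.9, 84.8, 0.494 and 109.7 CPM. As paralogs, the 3 may share reads. The small proline-rich genes Sprr2a2, Sprr2a3 and Sprr1a of the epidermal region on chromosome 3 had differences of -5.78, -5.82 and -5.17, and Sprr2a2 and Sprr2a3 are also near-identical. Among lower genes past a 2-fold gap, those with the largest differences also included Fam25c (50.9, 519, 6.09 and 1129 CPM), Snx31 (6.43, 87.8, 1.32 and 148 CPM) and Gata3, a transcription factor of urothelium (8.77, 127, 2.63 and 227 CPM), together with Upk2, Upk1b and Uchl1.

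Skeletal muscle genes were lower in 9 of 13 measured members, median -2.37, with a summed level of 125, 240, 118 and 2004 CPM. The KRG and control uteri were close and the combined uterus was far above both. Without the combined uterus 6 members were lower and the skeletal muscle median was -0.80. Tnnc2, fast troponin C, stood at 7.02, 20.7, 2.96 and 317 CPM (difference -3.27), 2.37-fold (95% interval 1.60 to 3.58) below the control. Mb, myoglobin, stood at 6.80, 6.79, 0.905 and 66.4 CPM (difference -3.07), and Ckm, muscle creatine kinase, at 3, 17.6, 2.96 and 144 CPM, where KRG and control were equal within counting error. Acta1, skeletal actin, stood at 37.4, 62.3, 27.4 and 565 CPM, and the myosins Myh1 and Myh4 had 0 counts in the KRG uterus.

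**Figure D3:**
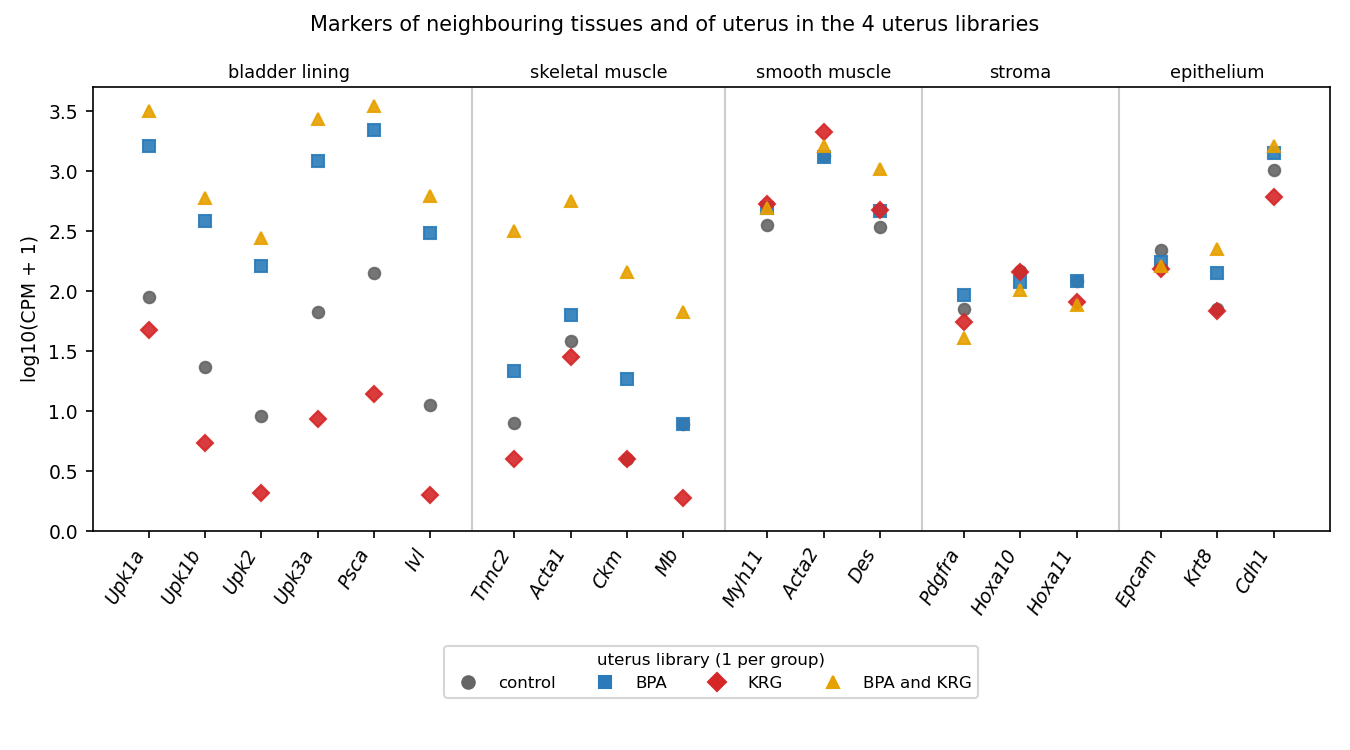
Levels of bladder lining, skeletal muscle, smooth muscle, stromal and epithelial genes in the 4 uterus libraries, as log10(CPM + 1); each point is 1 library. The KRG library (diamonds) is lowest for the bladder genes, with Upk3a at 7.57 CPM, and lies near the others for smooth muscle and stroma.

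Smooth muscle and stromal genes were not called, while some epithelial and mesothelial genes were lower. Smooth muscle genes had 0 of 15 called and a median of 0.36, with Myh11, smooth muscle myosin, at 355, 493, 528 and 490.4 CPM and Acta2, smooth muscle actin, at 1339, 1312, 2142 and 1609 CPM, where KRG was highest. Stromal fibroblast genes had 0 of 16 called (median -0.04). Hoxa10 and Hoxa11, which pattern the uterus, stood at 145, 119, 144 and 101 CPM and 121, 122, 80.0 and 76.2 CPM. Epithelial and gland genes had 4 of 19 lower, beside 2.49% of all genes tested, and 0 higher (median -0.28). The adhesion protein E-cadherin, Cdh1, stood at 1016, 1405, 612 and 1627 CPM (difference -1.11), Krt19, a keratin of simple epithelia, at 111, 183, 76.7 and 263 CPM, Cldn4, a tight junction claudin, at 43.1, 148, 40.4 and 239 CPM and Wnt7b at 24.3, 45.0, 18.6 and 92.2 CPM. The 4 genes had the order of the bladder genes, from KRG through control and BPA to the combined uterus. Without the combined uterus all 4 came under 2-fold, at -0.97 for Cdh1, -0.88 for Krt19, -0.97 for Cldn4 and -0.80 for Wnt7b. Epcam, a marker of uterine epithelium that was not called, stood at 219, 175, 151 and 160.1 CPM, and Foxa2, the gland factor, at 61.3, 16.5, 44.2 and 16.9 CPM. Mesothelial genes had 2 of 7 lower, Upk1b and Krt19, which are shared with the bladder and epithelial lists.

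Estrogen-induced genes of the uterus had 1 of 16 called, Sprr2a2, on the lower side, and a median of 0.26. Sprr2a2 is counted in the bladder lining list too. The estrogen receptor gene Esr1 stood at 190.2, 145, 159.8 and 89.0 CPM and the progesterone receptor gene Pgr, its target, at 119, 71.5, 84.3 and 49.6 CPM, where the KRG uterus lay inside the range of the 3. Igf1, a growth factor that estrogen induces in uterus, stood at 201, 145, 287 and 131 CPM (difference 0.87), highest in KRG and not called. Cell cycle genes had 3 of 17 lower, beside 2.49% of all genes tested, and 0 higher (median -0.26). The 3 were Plk1, a mitotic kinase, at 16.1, 28.4, 6.66 and 29.5 CPM, Cenpf at 24.6, 54.3, 13.6 and 29.8 CPM and Ube2c at 23.8, 41.0, 12.8 and 31.2 CPM. Of immediate early genes 2 of 15 were lower, beside the same 2.49% (median -0.27), Egr1 at 66.1, 51.1, 27.8 and 57.7 CPM and Junb at 64.9, 88.2, 46.1 and 151 CPM. Cenpf came to -0.94 without the BPA uterus, Egr1 to -0.94 without the control and Junb to -0.70 without the combined uterus.

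Some vessel and matrix genes were higher. Endothelial genes had 2 of 13 higher, beside 3.1% of all genes tested (median 0.33). They were Gpihbp1 and Rbp7, a retinol-binding protein of fat capillaries, which stood at 78.1, 45.9, 167 and 31.5 CPM. Gpihbp1 passed the filter only through the KRG library. The general endothelial genes Pecam1 (0.15) and Cdh5 (0.44) were not called. Extracellular matrix genes had 7 of 48 higher, beside the same 3.1%, and 0 lower (median 0.39). Fibrillar collagen gene Col5a3 stood at 14.8, 25.6, 67.3 and 28.6 CPM (difference 1.56), Col15a1, of basement membrane zones, at 69.8, 83.5, 167 and 55.7 CPM (difference 1.27), and Fbn1, fibrillin of microfibrils, at 29.6, 58.3, 136 and 98.9 CPM (difference 1.28). Col6a3, of collagen VI, stood at 268, 366, 661 and 275 CPM (difference 1.14). Fbn2, Nid2 and Col4a2 make up the 7, of which Fbn2 passed the filter only through the KRG library. Fbn1 had a difference of 0.83 without the control uterus, and Nid2 one of 0.90 without the combined uterus. The main fibrillar collagen chains were not called, with Col1a1 at 268, 668, 671 and 623 CPM and Col3a1 at 402, 702, 829 and 734 CPM. Lymphatic genes had 1 of 6 higher, Mmrn1 at 15.9, 8.59, 23.8 and 6.94 CPM.

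Among positional genes, 3 of 12 were higher, beside 3.1% of all genes tested (median 0.21). The 3 lie side by side in the Hoxc cluster, between 102976439 and 103011881 on chromosome 15. Hoxc8 stood at 11.1, 10.9, 82.6 and 13.2 CPM, a difference of 2.72 and 6.26-fold (95% interval 5.36 to 7.34) above the combined uterus. Hoxc9 stood at 6.51, 7.55, 18.1 and 8.30 CPM (difference 1.18) and passed the filter only through the KRG library, and Hoxc6 stood at 15.6, 12.7, 32.7 and 12.7 CPM (difference 1.20). Hox genes set the position of a tissue along the body axis. Hoxa, Hoxd and Emx2 members of the list were not called, with differences of -0.48 to 0.33. Of 4 measured nerve and Schwann cell genes 3 were lower, among them Prph, peripherin of peripheral neurons, at 30.6, 9.84, 4.61 and 11.7 CPM, and Uchl1, which followed the bladder genes at 21.2, 212, 4.61 and 261 CPM. The fourth, S100b, made by Schwann cells and fat cells, was higher, at 149.9, 129, 599.9 and 129 CPM (difference 2.14), and was named after its values were seen.

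**Figure D4:**
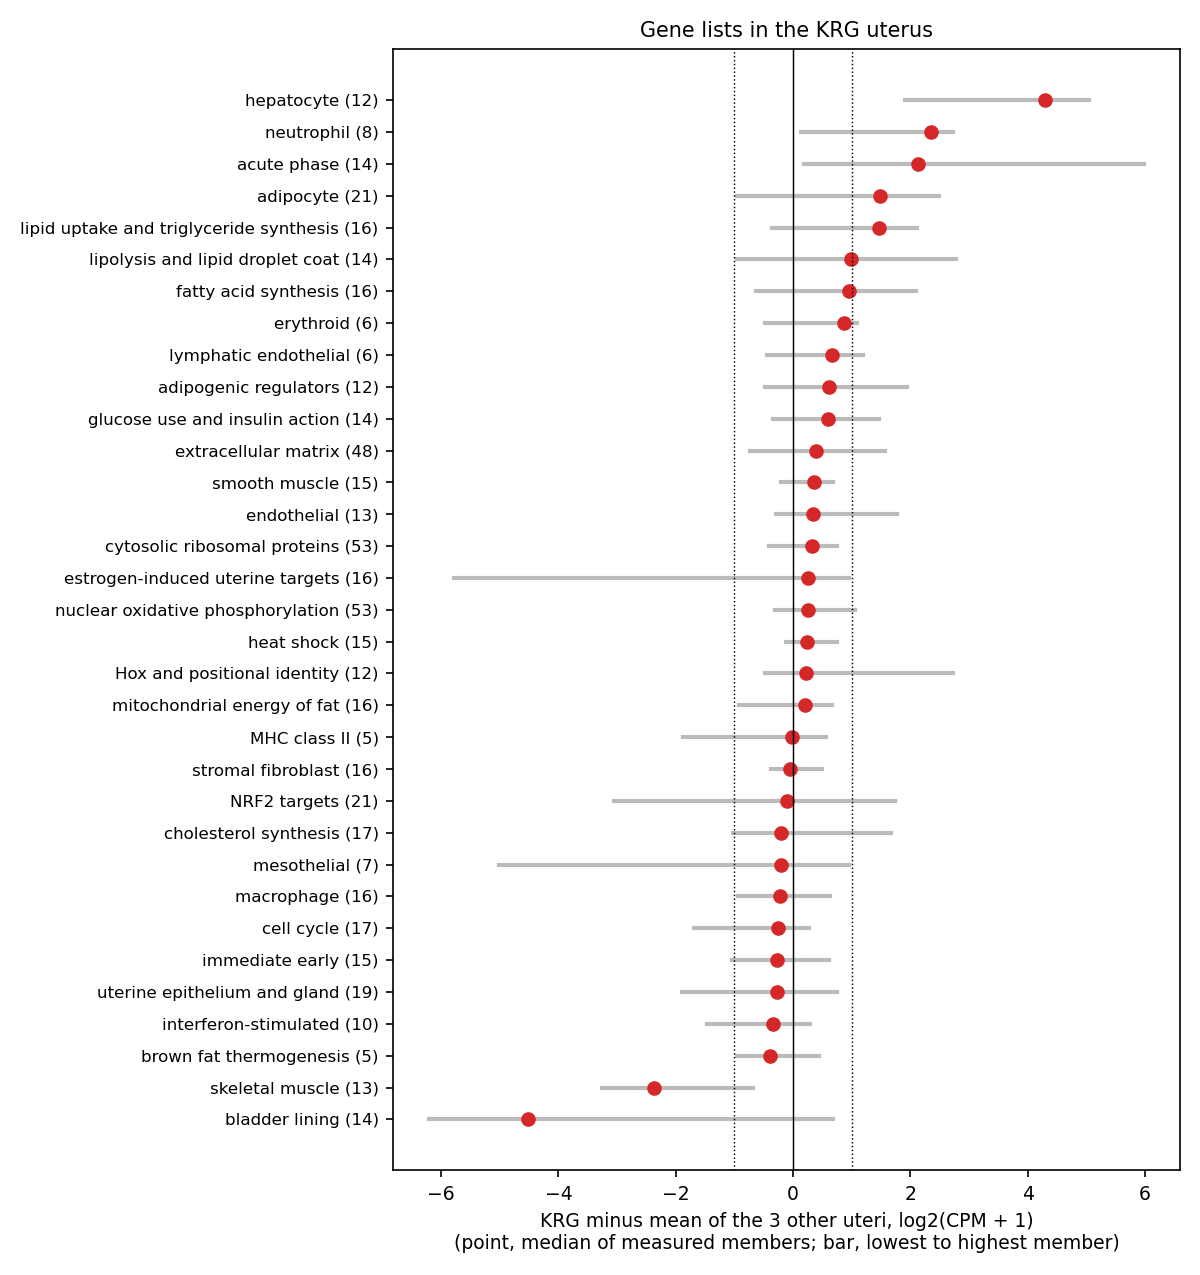
Difference of the KRG uterus from the mean of the 3 others on the log2(CPM + 1) scale, for each gene list with at least 5 measured members (number in brackets); the point is the median of measured members, the bar runs from the lowest to the highest member, and dotted lines mark 2-fold. Hepatocyte (4.30), neutrophil (2.34), acute phase (2.13) and adipocyte (1.48) lists have the highest medians, and bladder lining (-4.52) and skeletal muscle (-2.37) the lowest.

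Heat shock, ribosomal protein and oxidative phosphorylation genes were seldom called, as were all genes tested (3.1% higher and 2.49% lower). Heat shock genes had 0 of 15 called (median 0.24), cytosolic ribosomal protein genes 0 of 53 (median 0.32) and nuclear oxidative phosphorylation genes 1 of 53, Ndufs6, higher at 106, 109, 233 and 121 CPM (median 0.25). Differences under 2-fold leaned one way, with 36 of the 53 ribosomal and 37 of the 53 oxidative phosphorylation genes above the range of the 3, beside 29.4% of all genes. The summed ribosomal level was 98297, 71071, 96499 and 66745 CPM, so the control uterus lay close to KRG and slightly above it. The oxidative phosphorylation sum was 10795, 11053, 13573 and 11312 CPM, highest in KRG. Erythroid genes had 0 of 6 called (median 0.87), and the control uterus was highest for the hemoglobins, with Hba-a1 at 2878, 1354, 2364 and 468 CPM. Targets of the antioxidant factor NRF2 had 1 of 21 higher and 3 lower, beside the same 3.1% and 2.49% (median -0.11). The higher gene was the glutathione transferase gene Gsta3, which is liver-rich, at 31.0, 25.2, 98.6 and 30.5 CPM, and the lower ones were Gstm1, at 139.8, 1528, 98.0 and 2556 CPM, Osgin1 and Akr1b8, the last at -0.98 without the combined uterus. The oviduct and ovary list had 1 of 3 higher, Star, the steroid transport protein, at 7.89, 14.8, 30.6 and 9.45 CPM, and the acinar pancreas list had 1 measured member and 0 called.

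**Figure D5:**
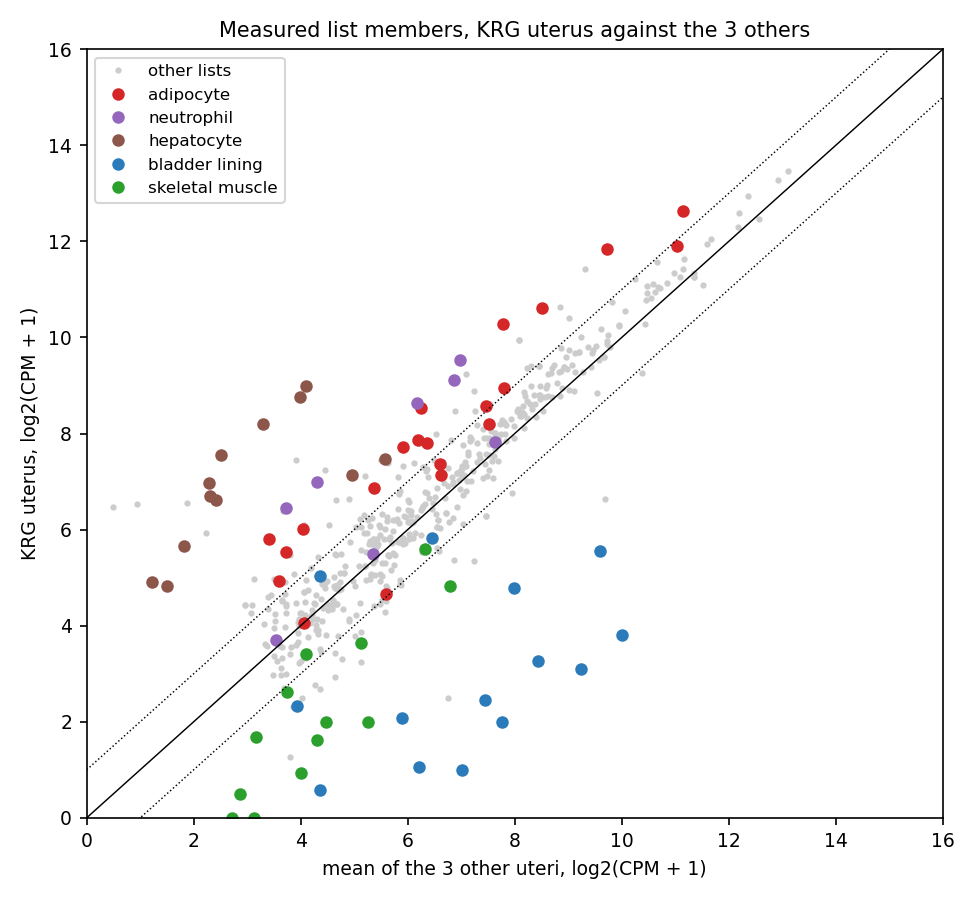
Level in the KRG uterus against the mean of the 3 other uteri, both as log2(CPM + 1), for measured members of the gene lists; the solid line is equality and the dotted lines are 2-fold. Most adipocyte genes lie above the upper line, at low and high levels, up to Fabp4 at 6337 CPM, while hepatocyte genes lie above it at low levels and bladder genes below the lower line.

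The same rule was applied to the KRG liver against the 3 other livers, which shares no library with the uterus. There 39 of 6705 genes were higher (0.582%) and 55 lower (0.82%), and 10 (0.149%) and 14 (0.209%) by the stricter reading. The genes higher in both tissues were Lpin1 and Zbtb16, a transcription factor induced by glucocorticoids, 1% of the 200 higher uterus genes that were also tested in liver and 5.13% of the liver list. Lpin1 in liver stood at 114, 387, 509 and 82.5 CPM, where the BPA liver lay close below KRG, unlike in uterus. Cyp26b1, Egr1 and Tnfaip2 were lower in both (4.35% of the 69 lower uterus genes tested in liver and 5.45% of the liver list). The 8 genes lower in uterus and higher in liver, 11.6% of those 69 and 20.5% of the liver list, were the muscle genes Acta1, Ckm, Mb, Mylpf, Tcap and Tnnc2, with H2-K1 and Slc35g1. Insig1 was higher in uterus and lower in liver, at 150.1, 127, 64.9 and 164 CPM (difference -1.16).

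A fit of 1 against 3 takes as its error the spread between 3 libraries that had different treatments. With edgeR's quasi-likelihood test, 1 of 9198 genes was higher at a Benjamini-Hochberg adjusted p under 0.05, Saa1 (adjusted p = 0.0465), and 0 were lower. Saa1 passed the filter only through the KRG library, so it had to differ and the call supports nothing. By this test 618 genes had an unadjusted p under 0.05. With DESeq2's Wald test, 147 were higher and 40 lower, of which 130 and 31 were also called by the rule above, and 846 had an unadjusted p under 0.05. The DESeq2 calls included higher genes of the adipocyte, lipid uptake and triglyceride synthesis, neutrophil and hepatocyte lists, and lower genes of the bladder list. edgeR called no member of these lists. Neither fit gives an error between animals of 1 group.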

How the data were processed

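The authors deposited raw read counts for 23282 gene rows named by symbol, in a file for each library (44 rows repeat a symbol and were kept apart). Bowtie2, edgeR and mm10 are named, without versions or roles, per the submitters' processing notes. The sources used here do not give the counter, the strand setting or the handling of reads with several matches, so near-identical copies and overlapping genes are uncertain. TMM scaling (edgeR 4.0.16, run under R 4.3.3) was applied to the 4 libraries of a tissue to give CPM. Genes averaging 10 CPM or more there were used, 9198 in uterus and 6705 in liver, with a pseudocount of 1 CPM on the log2 scale. DESeq2 1.42.0 gave an alternative fit. Coordinates are from GENCODE M21 (8839 of the 9198 genes matched), on the same build as mm10. The comparison and the 41 gene lists were chosen with earlier results of these data known. Genes are named by rule: Adipoq, Lpl and S100a8, the 15 higher and 15 lower genes with the largest difference among those past a 2-fold gap, up to 6 called members of each list with 2 or more, and the uncalled markers that define a list. Others named here were chosen after their values were seen. Some genes that the naming rule or the lists hold are not reported here.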

Additional observations from a re-analysis of the deposited data

Results flagged for a closer look

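For 9 genes the KRG uterus and the KRG liver lay outside the range of the 3 other libraries of their tissue on opposite sides, at least 2-fold from their mean in each. The differences between tissues were not tested. On the log2(CPM + 1) scale, the uterus difference minus the liver difference was -8.16 for Tnnc2 (uterus -3.27, liver 4.90), -7.40 for Mb, -6.87 for Acta1, -6.41 for Ckm, -6.02 for Mylpf and -5.24 for Tcap, 6 genes of skeletal muscle. The muscle genes were carried by the KRG and control livers and by the combined uterus, with Acta1 at 42.5, 0.246, 117 and 0.155 CPM in the livers and at 37.4, 62.3, 27.4 and 565 CPM in the uteri. H2-K1, a class I antigen-presenting gene, gave -2.73, with KRG level with BPA in the uteri, at 279.9, 82.0, 81.7 and 238 CPM there and 137, 572, 1057 and 507 CPM in the livers. Slc35g1 gave -2.91, at 31.1, 107, 23.5 and 212 CPM in the uteri. Insig1 was the gene with the opposite sign, 2.83, with the KRG library highest of the uteri and lowest of the livers.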

How the results depend on the processing

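No paired analysis was possible because each group has 1 library and the result comes from no test. Counts that moved by over 1.5 times are grouped here. With a filter of 1 CPM the KRG uterus had 547 higher and 474 lower genes (286 and 85 by the stricter reading), and with no filter 597 and 480 (306 and 85). A pseudocount of 5 CPM left 18 lower genes by the stricter reading. Leaving out each of the 3 other uteri in turn gave 271 to 362 higher and 175 to 377 lower genes, and 179 to 260 and 57 to 267 by the stricter reading, the highest value of each being without the control uterus. DESeq2 called 147 and 40 genes and edgeR 1 and 0. Without liver-rich genes, an alternative chosen after seeing the data and set from the KRG level itself, 187 genes were higher. In liver the counts were 107 and 86 at 1 CPM, 140 and 87 without a filter, 5 and 13 with DESeq2 and 0 and 0 with edgeR, where 273 genes had an unadjusted p under 0.05 in edgeR and 267 in DESeq2. Of 873 values of 97 named genes under 9 alternatives of scaling, pseudocount, filter or left-out library, 0 changed sign and 23 came under 2-fold. The filter alternatives cannot move a gene's value. The genes were also named for their differences in these same data, so the signs were largely fixed in advance. The lowest counts limit the genes under the filter, and 1 library per group limits every value.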

Other observations

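Beyond the gene lists, 67 genes that were not liver-rich were at least 2-fold above the highest of the 3 other uteri. The genes named here were chosen after their values were seen. Timp4, a tissue inhibitor of metalloproteinases, stood at 8.19, 10.3, 59.7 and 11.1 CPM (difference 2.49), and Mrap, the accessory protein of the melanocortin receptor, at 13.0, 10.3, 71.8 and 13.7 CPM (difference 2.46). The hormone receptor genes Ghr, for growth hormone, at 67.8, 47.9, 249 and 56.0 CPM, Npr3, which clears natriuretic peptides, at 74.8, 44.7, 234 and 48.4 CPM, and Tshr, for thyrotropin, at 4.75, 5.20, 25.9 and 9.18 CPM, were also highest in the KRG uterus. Timp4 and Tshr averaged under 10 CPM over the 3 others. They passed the filter only through the KRG library and could only be higher. Of metabolic enzymes, Cdo1, cysteine dioxygenase, stood at 269, 253, 946 and 332 CPM and the amine oxidase gene Aoc3 at 65.5, 58.9, 178 and 61.5 CPM. The amino acid transporter genes Slc7a10 and Slc36a2 stood at 17.4, 13.7, 65.9 and 18.2 CPM and at 17.8, 16.1, 62.4 and 16.2 CPM.

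On the lower side, 33 genes outside the lists were at least 2-fold below the lowest of the 3. Wif1, a secreted inhibitor of Wnt ligands, stood at 26.1, 14.3, 3.37 and 11.4 CPM, and Cxcl14, a chemokine of epithelia, at 73.5, 81.6, 26.3 and 54.4 CPM. Both had their lowest level in KRG without the high values in the 2 uteri given BPA that the bladder genes had.

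Liver-secreted genes lie beside Adipoq on chromosome 16, where Fetub, Kng2, Kng1 and Adipoq fall between 22918334 and 23158028 and the 4 were higher in the KRG uterus. Their levels in liver set them apart, at a mean of 3915 CPM for Kng1 and 0.439 CPM for Adipoq.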
